A study of Mus musculus with 5 samples.

Results

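The costimulatory and checkpoint receptors examined here are 10 genes chosen by symbol, *Icos*, *Icosl*, *Cd28*, *Ctla4*, *Pdcd1*, *Cd274*, *Lag3*, *Tigit*, *Havcr2* and *Btla*. They are 10 of the 47729 genes in the deposited count table, and all 10 passed the filter on low counts that left 19011 genes for testing. The study compared dermal group 2 innate lymphoid cells (dILC2s), tissue-resident lymphocytes that make type 2 cytokines and carry no rearranged antigen receptor, between wild-type (WT) and *Rag1*-deficient (*Rag1*-/-) mice by RNA sequencing. *Rag1*-/- mice lack the recombinase that assembles antigen receptors and therefore have no mature T or B cells. The question put to these 10 genes was how far each was transcribed in sorted dILC2s, and whether its level differed with genotype.

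All mice were female and of the C57BL/6 strain, aged 8 to 13 weeks, and the sorted skin cells were sequenced without any stimulation in culture. The WT group held 3 pools of 10 mice each (pools 5, 6 and 13), and the *Rag1*-/- group held 2 pools of 9 mice each by the study's methods (pools 2 and 7), 18 mice in all, whereas the labels count 16. Each library therefore averages over many animals, and p-values measure the spread between pools. The study's gate for these cells took viable CD45+CD90hi ear-skin cells without CD2/CD3 signal. The labels call the cell type of the WT libraries type 2 and that of both *Rag1*-/- libraries type 3 innate lymphoid cells, while every other description gives dILC2s for both.

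T cells and innate lymphocytes read their surroundings through paired receptors and ligands of the immunoglobulin superfamily. Costimulatory receptors such as CD28 and ICOS recruit phosphoinositide 3-kinase and add to activating signals, whereas inhibitory receptors such as PD-1, CTLA-4, BTLA and TIGIT recruit phosphatases or compete for ligands and dampen them. In ILC2s, ICOS and its ligand ICOSL are both found on the cell surface and support survival and cytokine release, and PD-1 is known as a brake on activated ILC2s.

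Library depth ranged from 32939428 to 39477243 counts in the WT pools, whereas pool 2 held 8050562 and pool 7 held 38922750 counts. The detection floor was set at 3 counts, which equals 0.373 CPM (counts per 1000000 counts of the library) in pool 2 and between 0.0760 and 0.0911 CPM in the other 4 libraries; this limit covers counting error only. The targeted gene *Rag1* was covered by 4, 0 and 5 reads in WT and by 5 and 48 reads in pools 2 and 7 (a log2 difference of 3.53 with a standard error of 1.03, adjusted p = 0.0865, edgeR's quasi-likelihood test), and was therefore not lower in the libraries labelled *Rag1*-/-. These counts are per gene and do not show which part of *Rag1* the reads cover. Genotype names below follow the labels. The purity markers also differed. The 26 genes listed as expressed by all leukocytes summed to 1032, 2504 and 2541 CPM in WT pools 5, 6 and 13. Their sums were 8305 and 7232 CPM in pools 2 and 7, with *Ptprc* (CD45) at 122, 421 and 341 against 1177 and 623 CPM. Of the 26, *Evi2b* had 1 count in WT pool 13 and 0 counts in every other library. Keratinocyte genes (16 genes) summed to 40490, 31610 and 27900 CPM in WT and to 6512 and 16700 CPM in the libraries labelled *Rag1*-/-, with *Krt14* at 5108 to 6118 against 1792 and 3049 CPM.

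Lymphocyte markers other than the 10 genes also moved with genotype, and their counts stand against 3.57% of all genes called higher and 2.16% called lower by edgeR (adjusted p under 0.05 and a log2 change beyond 1). The ILC2 list (16 genes) summed to 1211, 2354 and 1933 CPM in WT and to 5479 and 3300 CPM in pools 2 and 7, with 4 of 16 called higher, 0 lower and a median log2 fold change of 1.92. Its markers *Gata3* (199 to 319 against 558 and 369 CPM) and *Il1rl1* (8.17 to 52.1 against 161 and 40.4 CPM) were present in every library. The ILC3 list (9 genes) summed to 391.5, 497 and 433 CPM in WT and to 978 and 661 CPM in pools 2 and 7, with 4 of 9 called higher and 1 lower. Of these, the cytokine genes *Il22* (0.0253 to 0.593 against 23.4 and 6.73 CPM) and *Il17f* (0.516 to 1.01 against 39.4 and 14.9 CPM), named after their values were seen, were also called higher when edgeR was scaled on the leukocyte genes. The NK and ILC1 list (10 genes) summed to 27.2, 90.2 and 91.7 CPM in WT and to 225 and 259 CPM in pools 2 and 7, with 3 of 9 tested genes called higher, 0 lower and a median of 2.42.

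The T cell list (13 genes) summed to 55.9 to 111 CPM in WT and 374 and 320 CPM in pools 2 and 7. In that list 4 of 11 tested genes were called higher and 0 lower, namely *Cd3g* (2.23 on the log2 scale), *Cd247* (1.71), *Trac* (2.11) and *Trbc2* (2.43), all but *Trac* named after their values were seen. DESeq2 called 6 higher and 1 lower, against 7.4% and 7.6% of the genes to which it gave an adjusted p. The lower one was *Cd5*, with a log2 change of -1.54 and an adjusted p of 0.0387 in DESeq2. *Cd5* was at 2.00 to 3.58 CPM in WT and at 1.37 and 0.668 CPM in pools 2 and 7. *Cd3e* overlapped between genotypes, at 5.46 to 7.98 against 9.44 and 7.42 CPM, and *Cd8b1* had 0 counts in 4 of the 5 libraries. The regulatory T cell list (7 genes) summed to 257.7 to 299.6 CPM in WT and 471 and 580 CPM in pools 2 and 7, with a median of 0.53. Its members moved both ways, since edgeR called 2 higher and 0 lower and DESeq2 called 2 higher and 2 lower, and *Foxp3* overlapped at 0.232 to 1.24 against 2.73 and 0.745 CPM. The part of these markers in the differences reported below was not tested. In bulk libraries such as these, fewer cells of a type and less RNA per cell cannot be told apart.

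Of the 10 genes, 4 were called higher in the libraries labelled *Rag1*-/- (*Pdcd1*, *Tigit*, *Cd274* and *Icosl*) and 0 lower, by edgeR's quasi-likelihood test, which required an adjusted p under 0.05 and a log2 change beyond 1 in either direction. Over all genes tested, 3.57% were called higher and 2.16% lower. DESeq2 on the same counts called 5 of the 10 higher, the 4 above and *Icos*, and 0 lower, against 7.4% and 7.6% of the genes to which it gave an adjusted p. Both libraries labelled *Rag1*-/- lay above all 3 WT libraries in CPM for 7 of the 10 genes, an order found in 21.9% of all genes, and below them for *Lag3* alone, an order found in 24% of all genes. *Ctla4* and *Havcr2* overlapped between genotypes. The median log2 fold change was 1.46 over the 10 genes and 0.020 over all genes tested. Of the 26 genes listed as expressed by all leukocytes, 25 were tested, all but *Evi2b*. Of these, 19 were called higher by edgeR and 0 lower, with a median of 2.05. WT pool 5, the WT library with the lowest leukocyte sum, was the lowest WT library for 7 of the 10.

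**Figure D1:**
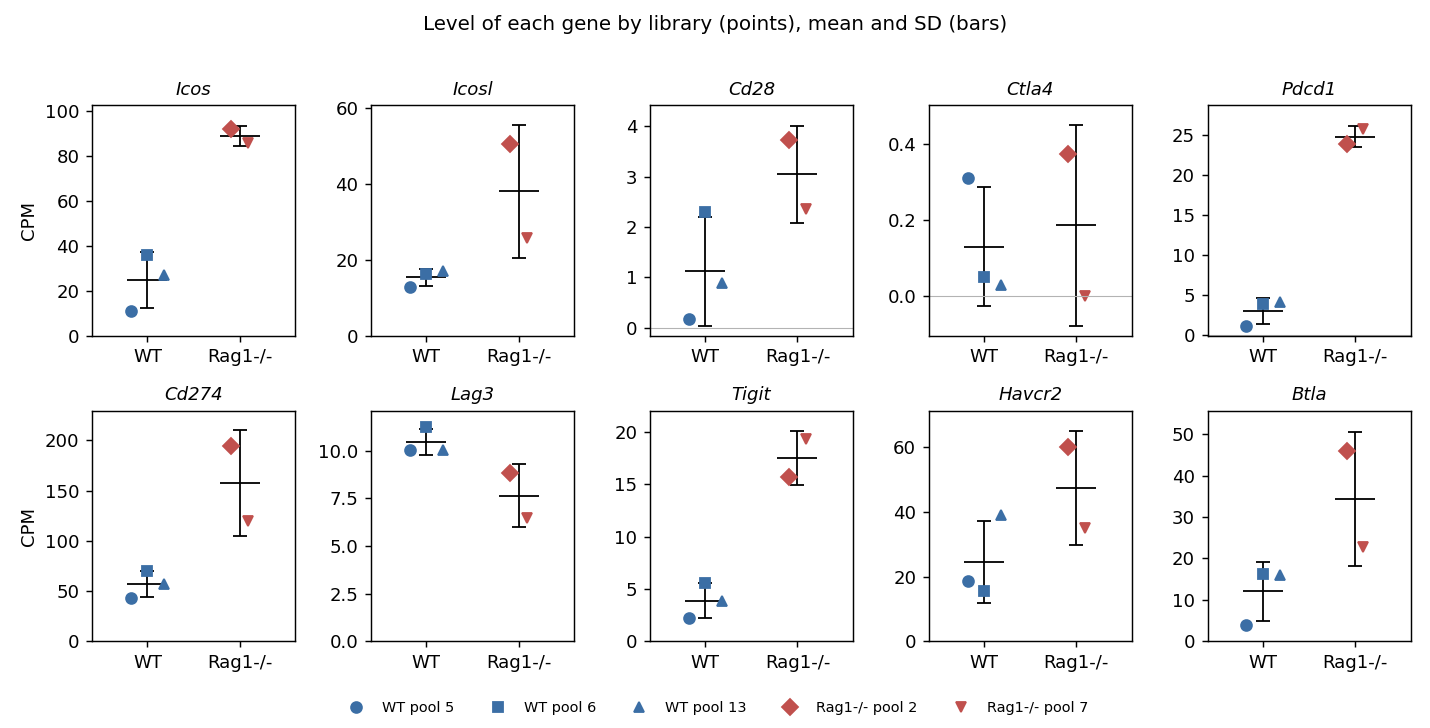
CPM of each of the 10 genes (vertical axes, one scale per gene) in the 3 WT and 2 *Rag1*-/- libraries (points, with the mean and SD as bars). The *Rag1*-/- points lie above every WT point for 7 genes and below them for *Lag3*, and the groups overlap for *Ctla4* and *Havcr2*.

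Among the costimulatory receptors, *Icos* had the higher level per kilobase of exon. Its level was 11.1, 35.7 and 26.9 CPM in WT pools 5, 6 and 13 and 91.9 and 85.4 CPM in pools 2 and 7. Both libraries labelled *Rag1*-/- exceeded the highest WT library by more than the WT spread, with means of 24.6 ± 12.5 (SD, n = 3) and 88.7 ± 4.61 CPM (SD, n = 2), a ratio of 3.60. The change of 1.88 on the log2 scale (standard error 0.43) missed the threshold in edgeR's quasi-likelihood test at an adjusted p of 0.0509 and passed it in DESeq2 (1.85, adjusted p = 0.00117). It also passed in edgeR with no filter on low counts (adjusted p = 7.86e-05) and with at least 10 counts in every library (adjusted p = 0.0354). It missed the threshold with RLE scaling (adjusted p = 0.0526), library size alone (0.0525), a robust fit (0.0559), limma (0.052) and in all 5 fits that left out 1 library (0.0613 to 0.139). *Icos* lies on chromosome 1 of GRCm38, from 60977927 to 61000320 on the plus strand.

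*Cd28*, the classical costimulatory receptor of T cells, was low in these cells. Its reads numbered 7, 91 and 29 in WT pools 5, 6 and 13 and 30 and 92 in pools 2 and 7, or 0.180, 2.31 and 0.880 CPM against 3.73 and 2.36 CPM. Pool 7 stood barely above WT pool 6. The difference of 1.43 (log2, standard error 0.89) was not called by edgeR (adjusted p = 0.357) or DESeq2 (adjusted p = 0.297). When every library was thinned to 8050562 counts, WT pool 5 kept 1 count of *Cd28*.

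*Ctla4*, the inhibitory receptor that shares CD28's ligands, was hardly detected. WT pools 5, 6 and 13 held 12, 2 and 1 reads of it, and pools 2 and 7 held 3 and 0, so that 4 of the 5 libraries stood at or under 3 counts. No genotype difference was detectable at this depth (log2 fold change -0.27, standard error 1.77, adjusted p = 0.949 in edgeR), and DESeq2 gave no adjusted p. *Cd28*, *Ctla4* and *Icos* are neighbours within 283.5 kb of chromosome 1, in this order and on the same strand, with 113.6 kb between *Cd28* and *Ctla4* and 62.1 kb between *Ctla4* and *Icos*. Of the 3, only *Icos* exceeded 4 CPM in any library.

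*Icosl* encodes the ligand of ICOS. It measured 12.9, 16.2 and 17.2 CPM in WT and 50.6 and 25.7 CPM in pools 2 and 7, giving means of 15.4 ± 2.20 (SD, n = 3) and 38.1 ± 17.6 CPM (SD, n = 2). Pool 2 was the higher of the libraries labelled *Rag1*-/- by a wide margin, yet pool 7 was also above all WT libraries. The log2 change of 1.32 (standard error 0.30) was called by edgeR at an adjusted p of 0.0489 and by DESeq2 (adjusted p = 0.00293), and the edgeR call was lost when the libraries were scaled with RLE size factors (adjusted p = 0.0512) or by library size (adjusted p = 0.0547), and with limma on the normalized values (adjusted p = 0.0599). Without pool 2 the change was 0.81 (adjusted p = 0.112, edgeR), and without WT pool 5, 6 or 13 the adjusted p was 0.142, 0.135 and 0.13. *Icosl* spans 78069360 to 78079525 on the plus strand of chromosome 10.

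*Pdcd1*, which encodes PD-1, had the largest change of the 10 genes. It measured 1.11, 3.77 and 4.04 CPM in WT pools 5, 6 and 13 and 23.8 and 25.7 CPM in pools 2 and 7. The libraries labelled *Rag1*-/- were close to each other and far above every WT library, with means of 2.97 ± 1.62 (SD, n = 3) against 24.8 ± 1.32 CPM (SD, n = 2), a ratio of 8.34. This amounted to 3.09 on the log2 scale (standard error 0.51, adjusted p = 0.0306 in edgeR and 7.42e-07 in DESeq2). Of the 5 edgeR fits that left out 1 library, the call was met only in the one without pool 7 (adjusted p = 0.0384), which holds 1 library labelled *Rag1*-/- and takes the spread from the WT pools, and the log2 change lay between 2.70 and 3.36 in all 5. *Pdcd1* occupies 94038305 to 94052553 on the minus strand of chromosome 1.

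*Tigit*, an inhibitory receptor for nectin-family ligands, followed with 2.22, 5.6 and 3.83 CPM in WT and 15.7 and 19.3 CPM in pools 2 and 7. The genotypes did not overlap, and the means were 3.88 ± 1.69 (SD, n = 3) and 17.5 ± 2.58 CPM (SD, n = 2), a ratio of 4.50. The change was 2.21 on the log2 scale (standard error 0.41, adjusted p = 0.0336 in edgeR and 4.05e-05 in DESeq2). Leaving out any 1 library ended the edgeR call while the log2 change stayed between 1.92 and 2.58, with adjusted p from 0.0579 (without pool 7) to 0.12 (without WT pool 13); in 4 of these 5 fits no gene of the whole table was called. The gene runs from 43648861 to 43664184 on the minus strand of chromosome 16.

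*Cd274* encodes PD-L1, the ligand of PD-1, and had the highest level of the 10 genes per kilobase of exon in every library. In CPM it reached 43.5, 70.2 and 57.0 CPM in WT and 194 and 120 CPM in pools 2 and 7, with means of 56.9 ± 13.3 (SD, n = 3) and 157 ± 52.8 CPM (SD, n = 2). Both libraries labelled *Rag1*-/- were above the WT range, and pool 2 stood further from it than pool 7. The log2 difference of 1.49 (standard error 0.28) was called by edgeR (adjusted p = 0.0356) and DESeq2 (adjusted p = 0.000222). Without pool 2 it was 1.14 and not called (adjusted p = 0.0817, edgeR), and without pool 7, with the spread taken from the WT pools alone, it was 1.71 (adjusted p = 0.0189, edgeR). Leaving out WT pool 5, 6 or 13 also ended the call, with adjusted p of 0.0872, 0.0918 and 0.121 in edgeR. The gene lies at 29367455 to 29388095 on the plus strand of chromosome 19. An antisense gene model, AC119228.1, shares 511 exon bases with it in GENCODE M21, and the library kit did not mark the strand, so that reads of the antisense transcript cannot be told apart there.

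*Btla*, an inhibitory receptor for HVEM, measured 3.82, 16.3 and 16.0 CPM in WT and 45.8 and 22.8 CPM in pools 2 and 7. Pool 7 was nearer to WT pools 6 and 13 than to pool 2. The means of 12.0 ± 7.12 (SD, n = 3) and 34.3 ± 16.3 CPM (SD, n = 2) differed by 1.52 on the log2 scale (standard error 0.59), which was not called by edgeR (adjusted p = 0.159) or DESeq2 (adjusted p = 0.0592). Without a filter on low counts edgeR called it (1.44, adjusted p = 0.00784). *Btla* lies on chromosome 16 from 45224315 to 45252895 on the plus strand.

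*Havcr2*, which encodes the inhibitory receptor TIM-3, overlapped between genotypes. Its values were 18.8, 15.7 and 39.2 CPM in WT and 60.0 and 34.9 CPM in pools 2 and 7, so that WT pool 13 exceeded pool 7. The log2 difference of 0.97 (standard error 0.42) was not called (adjusted p = 0.191 in edgeR and 0.133 in DESeq2). TIM-3 is also found on dendritic cells and macrophages, and WT pool 13 had the highest sum of the 12 genes of the dendritic cell, Langerhans cell and macrophage list, 3073 CPM against 1374 and 1216 CPM in WT pools 5 and 6 and 1868 and 2884 CPM in pools 2 and 7. *Cd207*, the Langerhans cell lectin, was 608 CPM there and 177, 140, 316 and 493 CPM in the others in the same order. The part of such cells in the *Havcr2* values was not tested. *Havcr2* is on chromosome 11 from 46454935 to 46481255, plus strand.

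*Lag3*, an inhibitory receptor that binds MHC class II, was the only one of the 10 genes with both libraries labelled *Rag1*-/- below all WT libraries. It was nearly constant over the WT libraries, at 10.1, 11.2 and 10.1 CPM, and lower in pools 2 and 7, at 8.82 and 6.47 CPM. The difference was small, with means of 10.5 ± 0.691 (SD, n = 3) and 7.65 ± 1.66 CPM (SD, n = 2). A log2 change of -0.43 (standard error 0.27) was not called by edgeR (adjusted p = 0.356) or DESeq2 (adjusted p = 0.252). *Lag3* lies on the minus strand of chromosome 6, from 124904361 to 124911705.

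Per kilobase of exon in GENCODE M21, which allows levels to be compared between genes, *Cd274* had the highest level in WT libraries (15.7 ± 3.68 CPM per kb, SD, n = 3), followed by *Havcr2* (9.03 ± 4.70), *Icos* (7.17 ± 3.64), *Lag3* (4.96 ± 0.328), *Tigit* (4.22 ± 1.84), *Btla* (3.54 ± 2.10) and *Icosl* (3.34 ± 0.477). *Pdcd1* (1.54 ± 0.840), *Cd28* (0.183 ± 0.177) and *Ctla4* (0.0558 ± 0.0668) were the lowest. Neighbours in this order overlapped over the WT libraries except *Icosl* with *Pdcd1* and *Pdcd1* with *Cd28*. In the libraries labelled *Rag1*-/- the order was *Cd274* (43.4 ± 14.6 CPM per kb, SD, n = 2), *Icos* (25.9 ± 1.34), *Tigit* (19.0 ± 2.80), *Havcr2* (17.5 ± 6.51), *Pdcd1* (12.8 ± 0.685), *Btla* (10.1 ± 4.79), *Icosl* (8.25 ± 3.81), *Lag3* (3.63 ± 0.786), *Cd28* (0.497 ± 0.157) and *Ctla4* (0.0800 ± 0.113). *Pdcd1* thus moved from rank 8 in WT to rank 5, and *Lag3* from rank 4 to rank 8. *Tigit*, *Havcr2*, *Pdcd1* and *Btla* each overlapped with the next gene of that order, and the other neighbours did not overlap.

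The order depends on the length taken for each gene. The deposited table lists a transcript of 810 bases for it, while its exons in GENCODE M21 cover 3430 bases, and with the listed length *Icos* came first at 30.4 CPM per kb in WT and 109.5 CPM per kb in the libraries labelled *Rag1*-/-. *Cd28* (669 against 6122 bases) stayed among the lowest 3 genes by either length. *Icosl* (2756 against 4620 bases) moved from rank 7 to rank 4 in WT and from rank 7 to rank 5 in the libraries labelled *Rag1*-/-.

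**Figure D2:**
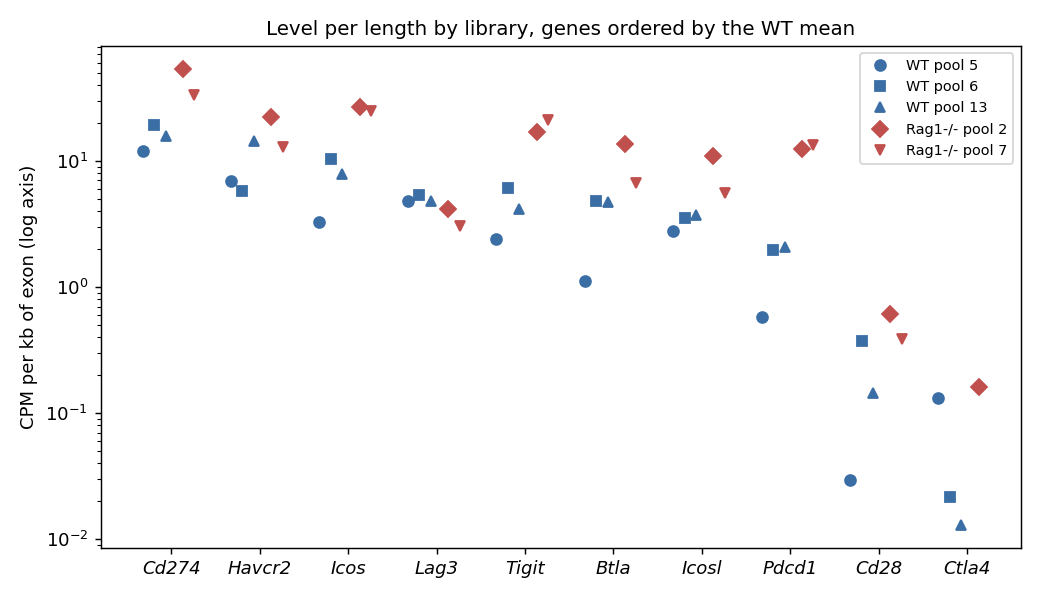
Level of each gene in CPM per kb of exon (log axis) in the 3 WT and 2 *Rag1*-/- libraries, with genes ordered by the WT mean; *Ctla4* had 0 counts in *Rag1*-/- pool 7 and has no point there. *Cd274* is highest in both genotypes, and *Cd28* and *Ctla4* lie below 1 CPM per kb in every library.

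Of the genes called higher, the promoter sequences of *Pdcd1*, *Tigit* and *Cd274* are shown because motifs of lymphocyte factors occur in their letters. RefSeq promoters of GRCm38.p6 were matched for 7 of the 10 genes, all but *Icos*, *Cd28* and *Lag3*, and the 250 bases before the start site were searched on both strands for the core bound by NFAT, spelled GGAAA, the core bound by GATA factors, spelled AGATAA, the core bound by RUNX proteins, spelled TGTGGT, and the core bound by AP-1, spelled TGANTCA. Capitals mark matches of a core on either strand, and the sequences read 5′ to 3′ on the strand of the gene, at chr1:94052554-94052803 (minus) for *Pdcd1*, chr16:43664185-43664434 (minus) for *Tigit* and chr19:29367188-29367437 (plus) for *Cd274*.
Pdcd1: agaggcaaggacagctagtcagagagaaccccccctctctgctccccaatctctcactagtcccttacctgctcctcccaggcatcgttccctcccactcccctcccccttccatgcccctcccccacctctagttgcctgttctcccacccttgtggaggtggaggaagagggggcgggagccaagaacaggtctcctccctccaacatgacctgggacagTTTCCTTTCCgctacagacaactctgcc
Tigit: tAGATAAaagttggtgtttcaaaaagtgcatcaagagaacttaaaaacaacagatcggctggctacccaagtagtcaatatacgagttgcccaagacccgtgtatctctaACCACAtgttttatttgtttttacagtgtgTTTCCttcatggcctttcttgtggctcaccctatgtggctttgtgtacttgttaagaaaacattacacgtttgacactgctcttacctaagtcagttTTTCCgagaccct
Cd274: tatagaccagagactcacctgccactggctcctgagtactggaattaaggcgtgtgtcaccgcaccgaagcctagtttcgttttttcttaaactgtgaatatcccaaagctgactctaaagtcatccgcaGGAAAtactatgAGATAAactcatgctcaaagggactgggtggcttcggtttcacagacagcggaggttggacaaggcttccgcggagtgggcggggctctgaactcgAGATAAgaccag

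The *Pdcd1* window held 2 adjacent NFAT cores on the reverse strand, beginning 28 and 23 bases before the start site. The *Tigit* window held NFAT cores 110 and 13 bases, a GATA core 249 bases and a RUNX core 140 bases before the start, and the *Cd274* window an NFAT core at 120 bases and GATA cores at 108 and 12 bases. No matches overlapped each other in these windows. The window of *Icosl*, which was also called higher, held no match and is not shown. The NFAT core was in 4 of the 7 windows and in 55.6% of 32851 RefSeq promoter windows of the same length. These 32851 windows leave out chromosome 18. The GATA core was in 2 of 7 (9.99% of all), the RUNX core in 3 of 7 (14% of all) and the AP-1 core in 1 of 7 (6.75% of all), that of *Havcr2*. A match describes the letters of the window only.

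Since the leukocyte sum was higher in the libraries labelled *Rag1*-/-, each gene was also expressed per 1000 counts on the 26 pan-leukocyte genes. On this scale *Pdcd1* was 1.07, 1.51 and 1.59 in WT pools 5, 6 and 13 and 2.87 and 3.56 in pools 2 and 7, so that it was the only one of the 10 to stay above all WT libraries. *Icos* was 10.8, 14.3 and 10.6 against 11.1 and 11.8, with both libraries labelled *Rag1*-/- inside the WT range. *Tigit* was 2.15, 2.24 and 1.50 against 1.89 and 2.67 and overlapped as well.

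*Lag3* per 1000 leukocyte counts was 9.74, 4.49 and 3.95 in WT and 1.06 and 0.895 in pools 2 and 7, well below the WT range, although WT pool 5 was far above the other WT libraries. *Icosl* was also below, at 12.5, 6.46 and 6.75 against 6.09 and 3.55, pool 2 only narrowly. The other 5 genes, *Cd28*, *Ctla4*, *Cd274*, *Havcr2* and *Btla*, overlapped between genotypes.

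**Figure D3:**
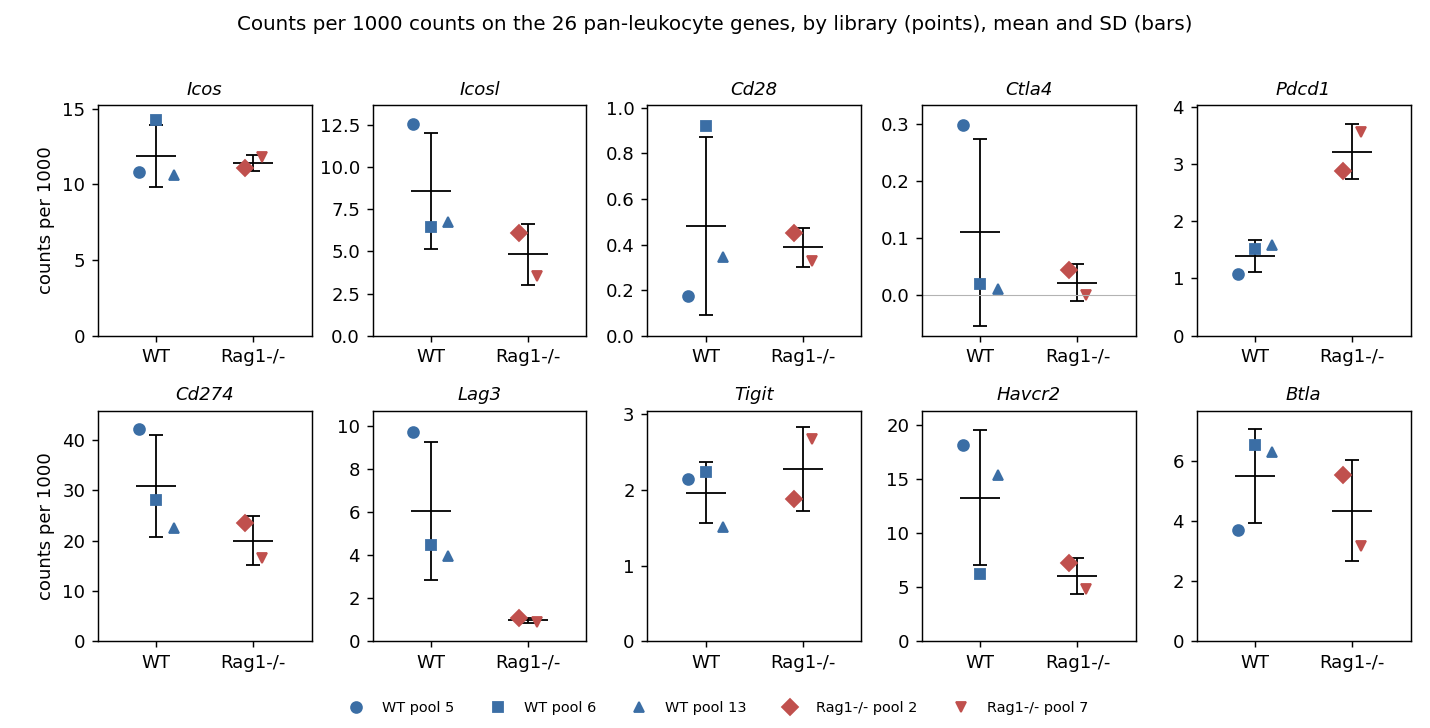
Counts of each gene per 1000 counts on the 26 pan-leukocyte genes (vertical axes, one scale per gene) in the 3 WT and 2 *Rag1*-/- libraries (points, with the mean and SD as bars). *Pdcd1* alone stays above the WT range, *Lag3* and *Icosl* lie below it, and the other 7 genes overlap.

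When edgeR was scaled on the leukocyte genes, the median of all genes tested moved from 0.020 to -2.18, and values on this scale are read against that shift. The median of the 10 genes was then -0.49. *Pdcd1* kept a positive value of 1.21 (log2, standard error 0.79, adjusted p = 0.15 in edgeR) and *Tigit* one of 0.22 (standard error 0.79, adjusted p = 0.803), neither called. *Icos* (-0.056), *Cd28* (-0.34), *Btla* (-0.35), *Cd274* (-0.63), *Icosl* (-0.83) and *Havcr2* (-1.14) turned negative and were not called. *Lag3* was called lower, at -2.63 on the log2 scale (adjusted p = 0.00814 in edgeR, standard error 0.85). With this scaling 0 of the 10 genes were called higher and 1 lower, against 0.0842% and 67.8% of all genes, so that the *Lag3* call was shared with most genes. Keratinocyte genes, which made up more of the WT libraries, had a median of -3.91, with 16 of 16 called lower. The part of the leukocyte share in the differences of the 10 genes was not tested.

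**Figure D4:**
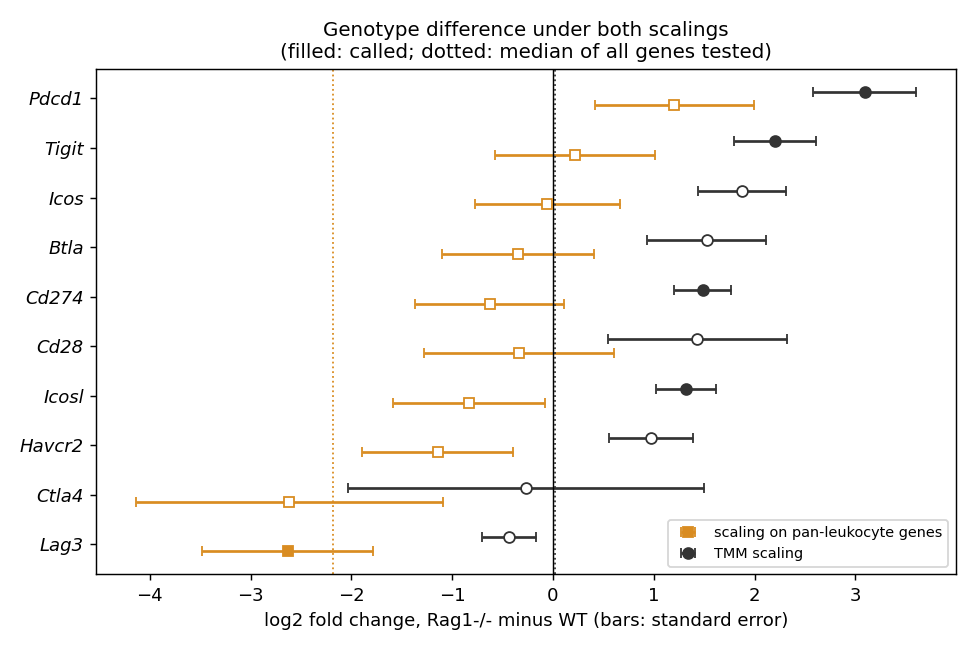
Log2 fold change (*Rag1*-/- minus WT) of each gene with its standard error, scaled by TMM (circles) and on the pan-leukocyte genes (squares), with called genes filled and dotted lines at the median of all genes, 0.020 and -2.18. The 8 positive values under TMM shrink to 2 under the leukocyte scaling, those of *Pdcd1* and *Tigit*.

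The partners of these receptors were read from 3 lists, and in all 8 of their 38 tested genes were called higher and 0 lower, against 3.57% and 2.16% of all genes. Among 13 ligands 1 was called, *Pdcd1lg2*, which encodes PD-L2, the other ligand of PD-1. It had 1.11, 3.93 and 3.86 CPM in WT and 21.1 and 21.5 CPM in pools 2 and 7. The groups did not overlap, and edgeR gave a log2 change of 2.88 (adjusted p = 0.0323, standard error 0.51), with 0.99 under the leukocyte scaling (not called). *Pdcd1lg2* lies 22.8 kb beyond the end of *Cd274*. The ligand with the lowest value was *Fgl1*, a ligand of LAG-3, at -2.13 (adjusted p = 0.325, edgeR), with 1.06 CPM or less in every library. The median of the ligands was -0.047, close to the 0.020 of all genes.

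Of 14 other co-signalling receptors listed, 13 were in the table and 11 were tested, and 2 were called higher. *Cd226*, the activating receptor that competes with TIGIT for ligands, had 0.980, 2.41 and 3.40 CPM in WT and 17.5 and 8.30 CPM in pools 2 and 7 (log2 change 2.52 ± 0.55 standard error, called by edgeR with adjusted p = 0.0457). *Cd96*, a further receptor of this ligand family, had 9.18, 19.7 and 19.7 CPM against 68.6 and 62.2 CPM (2.04 ± 0.34 standard error, adjusted p = 0.0306 in edgeR). *Tigit*, *Cd226* and *Cd96*, the 3 receptors of this ligand family in the table, were thus all called higher, and under the leukocyte scaling they measured 0.22, 0.58 and 0.044, with none called. Their ligands in the list, *Pvr* (0.042), *Nectin2* (-1.23), *Nectin3* (-0.047) and *Nectin4* (-1.86), were not called by edgeR, and were named after their values were seen. The lowest receptor was *Cd5*, a scavenger-type receptor of T cells, at -1.48 (adjusted p = 0.135, edgeR), and the list median was 0.93.

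Of 14 proteins that carry the signals of these receptors, 5 were called higher. They were *Pik3cd*, the leukocyte catalytic subunit of phosphoinositide 3-kinase (2.20, adjusted p = 0.0357), the adaptors *Grb2* (1.22, adjusted p = 0.0353) and *Grap2* (1.84, adjusted p = 0.044), the exchange factor *Vav1* (1.93, adjusted p = 0.0306) and the inositol phosphatase *Inpp5d* (1.74, adjusted p = 0.0329), all on the log2 scale in edgeR. *Pik3cd* measured 22.4, 55.7 and 42.0 CPM in WT and 239.5 and 123 CPM in pools 2 and 7. The lowest value was that of *Ptpn11*, the phosphatase SHP-2 recruited by PD-1 and BTLA, at -0.32 (adjusted p = 0.375, edgeR), and the median was 0.54. Under the leukocyte scaling 0 of the 38 partner genes were called higher and 20 lower, against 0.0842% and 67.8% of all genes.

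**Figure D5:**
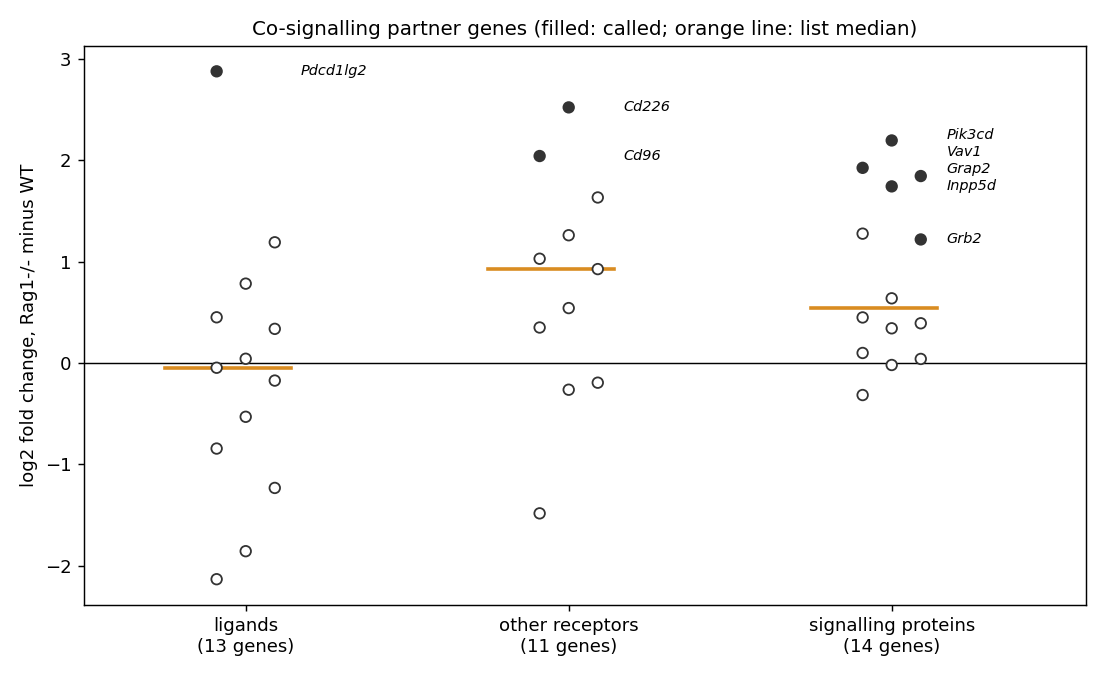
Log2 fold change (*Rag1*-/- minus WT, vertical axis) of the 13 ligands, 11 other receptors and 14 signalling proteins tested (points), with called genes filled and named and the list median as a line. *Pdcd1lg2* is the highest at 2.88, and all 8 called genes are positive.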

How the data were processed

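Poly(A) RNA of sorted dermal ILC2s was sequenced in 5 libraries, 3 WT and 2 *Rag1*-/- pools, from an unstranded kit. The tools in the submitters' processing notes were bcl2fastq 2.17.1.14, FastQC 0.11.5, STAR 2.5, featureCounts 1.5.0-p1 and DESeq2 1.8.2. The authors aligned reads to GRCm38 and deposited raw counts per gene, with a transcript length in bases for each gene (unit other). A normalized signal, deposited by the authors as well, was used here only with limma (log2 of the value + 1). The methods and the labels name different annotation releases, and the notes list GRCm39 beside GRCm38; all coordinates here are GRCm38, as in the count table.

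Counts were filtered with filterByExpr, scaled by TMM and fitted with genotype as the only factor in edgeR 4.0.16 (R 4.3.3). Its quasi-likelihood test was adjusted by Benjamini-Hochberg over all genes tested, and calls required an adjusted p under 0.05 with a log2 change beyond 1 in either direction. Standard errors of edgeR's log2 changes were derived as the absolute change divided by the square root of the test's F statistic. CPM used the library total. With 3 libraries against 2, an exact permutation test has 10 splits and cannot go below p = 0.1, so none is given. DESeq2 1.42.0, limma 3.58.1, RLE and library-size scaling, scaling on 26 pan-leukocyte genes, other filters (none, and at least 10 counts in every library), a robust fit, the adjusted p alone and leaving out each library were the alternatives. The fits were tested on simulated data. All 10 genes are named, and of each partner list the called genes and those with the largest and smallest log2 fold change; markers were named where needed beside these. The genes, lists and motifs were chosen with earlier results of these data known. *Cd244a* and the nectins appear in the table under older symbols. Flow cytometry was not analysed here.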

Additional observations from a re-analysis of the deposited data

How the results depend on the processing

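The counts of called genes depended on which library was left out. Leaving out 1 library gave 0 to 3 of the 10 genes called higher and 0 called lower, and 0 to 814 of all genes higher and 0 to 1595 lower. The fits without WT pool 5, 6 or 13 or *Rag1*-/- pool 2 called 0 genes of the whole table in edgeR, with smallest adjusted p of 0.0543, 0.0679, 0.109 and 0.0659 and 3521, 3735, 3874 and 5200 genes at an unadjusted p under 0.05. The fit without *Rag1*-/- pool 7 called *Pdcd1*, *Cd274* and *Icosl*. Fits without either *Rag1*-/- pool hold 1 *Rag1*-/- library, which is assumed to vary like the WT pools. Of all genes, DESeq2 called 1216 higher and 1248 lower, edgeR with no filter 1157 and 1488, and edgeR with at least 10 counts in every library 641 lower, against 679 and 411 in the fit reported. DESeq2 called 2 partner genes lower, *Nectin2* and *Cd5*, the former named after its values were seen.

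Scaling on the leukocyte genes called 0 of the 10 genes higher and 1 lower, and 0 partner genes higher and 20 lower. Of all genes it called 16 (0.0842%) higher and 12886 (67.8%) lower. It turned *Icos* (-0.056), *Icosl* (-0.83), *Cd28* (-0.34), *Cd274* (-0.63), *Havcr2* (-1.14) and *Btla* (-0.35) negative, by construction relative to genes that differed between genotypes. *Ctla4* turned positive with DESeq2 (0.31), limma (0.010) and without *Rag1*-/- pool 7 (1.41), while the other fits without 1 library that tested it gave -5.32 to -0.66; it had 12 counts or fewer in every library. After thinning to the shallowest library, 8 of the 10 genes had more than 3 counts in every library, against 9 as deposited. *Pdcd1*, *Tigit* and *Lag3* kept their direction in every setting run. The cause of the other changes was not tested. No paired analysis was possible because the groups share no replicate numbers.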
